A study of Homo sapiens with 4 samples.

Results

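Open chromatin was examined on human chromosomes 17, 19 and 22, which are often grouped as gene-dense chromosomes. Regions became members by position alone, but the chromosomes were chosen with earlier results of these data known. All peaks on these 3 chromosomes in 4 peak lists were merged into regions when they shared at least 1 bp, which gave 1024 regions of 20450 on chromosomes 1 to 22 and X. Of these, 452 lay on chromosome 17, 446 on chromosome 19 and 126 on chromosome 22.

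The libraries came from RKO, a human colon cancer cell line, and were made by ATAC-seq, in which the Tn5 transposase cuts and tags accessible DNA. One group was stably infected with a control lentivirus and the other with a lentivirus for shCHD7-2, a short hairpin RNA against CHD7, an ATP-dependent chromatin remodeller of the chromodomain helicase family. Each group held 2 libraries, and the labels do not say whether the replicates were separate cultures, so their spread may be technical. The comparison asks what happens to accessible chromatin when CHD7 is depleted, and the CHD7 transcript was not measured in these lists.

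Gene-dense chromosomes are known to be rich in GC and in housekeeping promoters, to replicate early and to lie towards the interior of the nucleus, where accessible chromatin is abundant. Chromosome 19 also carries large clusters of KRAB zinc finger genes, which are packed in heterochromatin in many cell types. Chromosome 22 is acrocentric, and its short arm consists of satellite and ribosomal DNA repeats that short reads cannot be placed on. CHD7 is known to bind enhancers and active promoters and to move nucleosomes there.

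The gene-dense label was checked against the RefSeq annotation of GRCh38.p14. Chromosome 19 ranked 1 of 23 with 24.8 protein-coding genes per Mb, and chromosome 17 ranked 2 with 14.1. Chromosome 22 ranked 5 with 8.88, behind chromosomes 11 with 9.68 and 16 with 9.48. By this measure the label held for chromosomes 17 and 19, while chromosome 22 fell within the range of the remaining chromosomes, 2.96 to 9.68 genes per Mb. The length ran from position 1 to the end of the last gene, so it included the short arm and centromere of chromosome 22. Centromeric, variable and stalk bands take 34.9% of that chromosome on hg19, and its gene density without them was not computed. Positions of regions are given on hg19, the build of the lists, and bands are those of the hg19 cytoband table. Genes and sequences were not assigned to regions, as no hg19 annotation or genome was used here.

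Facts of the lists as a whole bear on every value below. The lists held 13257 and 12092 peaks for the controls and 7199 and 8715 for shCHD7-2 on chromosomes 1 to 22 and X. Read totals are not in the lists. A whole-number pileup at each summit and a local background, the reads that the caller expected at that place, were solved from 2 deposited values per peak, its fold enrichment and its p. The most frequent background of a list, called the library background here, was 0.916 and 0.843 reads in the controls and 1.40 and 1.62 reads in shCHD7-2. The shCHD7-2 lists were thus shorter although their background was higher, and the difference in background cannot be told apart from the difference between groups.

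Fewer peaks were listed on chromosomes 17, 19 and 22 in both shCHD7-2 libraries than in either control library. Control replicate 1 had 759 peaks there and control replicate 2 had 669, while shCHD7-2 replicate 1 had 203 and shCHD7-2 replicate 2 had 262. The density was 3.73 ± 0.332 peaks per Mb in the controls and 1.21 ± 0.218 in shCHD7-2 (mean ± SD, n = 2 each), a log2 ratio of -1.62. The groups did not overlap, and an exact permutation test, two-sided, returned p = 0.333, the smallest value that 2 libraries against 2 allow. With all lists cut to the length of the shortest, the log2 ratio was -0.74. On the remaining chromosomes the density was 4.20 ± 0.267 peaks per Mb in the controls and 2.72 ± 0.362 in shCHD7-2, a log2 ratio of -0.63 without overlap and with the same exact p of 0.333.

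The 3 chromosomes therefore took a smaller part of the shCHD7-2 lists. Their share was 5.73% and 5.53% of the control lists and 2.82% and 3.01% of the shCHD7-2 lists, beside 6.31% of the summed chromosome length. The log2 ratio of the mean shares was -0.95 (exact permutation p = 0.333, n = 2 each), and the 2 groups did not overlap. Put as a ratio of peak density to that of the remaining chromosomes, the controls stood at 0.902 and 0.869 and the shCHD7-2 libraries at 0.431 and 0.460. Even in the controls, then, these chromosomes carried fewer peaks per Mb of full hg19 length than the rest. Centromeric, variable and stalk bands made up 17.7% of that length here and 6.69% elsewhere, so these ratios depend on the length used. Outside those bands, chromosome 19 was denser than the remaining chromosomes in both controls, and chromosomes 17 and 22 were sparser.

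The 3 chromosomes differed from one another in peak density. Chromosome 19 had 5.73 and 5.16 peaks per Mb in the controls, above the 4.39 and 4.02 of the remaining chromosomes, and 1.62 and 1.91 in shCHD7-2, below their 2.46 and 2.97. Chromosome 17 had 4.00 and 3.55 peaks per Mb in the controls and 1.19 and 1.70 in shCHD7-2. Chromosome 22 had 1.85 and 1.48 in the controls and 0.195 and 0.214 in shCHD7-2.

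Chromosome 19 was thus peak-rich in the controls and peak-poor in shCHD7-2, relative to the chromosomes outside the set. In counts, chromosome 22 had 95 and 76 peaks in the controls and 10 and 11 in shCHD7-2, a log2 ratio of -3.03, chromosome 19 had 339 and 305 against 96 and 113, a log2 ratio of -1.62, and chromosome 17 had 325 and 288 against 97 and 138, a log2 ratio of -1.38. Each of the 3 showed no overlap between groups and the same exact permutation p of 0.333. This was not particular to them, as among the 23 chromosomes only X overlapped, with 494 and 416 peaks against 381 and 464. Even chromosome 8, with 851 and 794 against 649 and 763, showed no overlap. Mean shCHD7-2 peak number was 12.3% of the control mean on chromosome 22, 32.5% on chromosome 19 and 38.3% on chromosome 17. Among the 23 chromosomes these were the values at ranks 1, 2 and 4 from the lowest, with chromosome 21, another small acrocentric chromosome, at 36.4% between them and chromosome X highest at 92.9%.

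Centromeric, variable and stalk bands held few peaks, and most of those on these 3 chromosomes were on chromosome 19, with 19 and 20 in the controls and 12 and 8 in shCHD7-2. With both the length and the peaks of these bands left out, an alternative added after the data were examined, the density in control replicate 1 was 6.85 peaks per Mb on chromosome 19, 4.15 on chromosome 17 and 2.81 on chromosome 22, against 4.69 on the remaining chromosomes. Chromosome 22 was the sparsest of the 3 in all 4 libraries by this measure, with 0.299 peaks per Mb in both shCHD7-2 libraries. The log2 ratio between groups over the 3 chromosomes was then -1.65.

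**Figure D1:**
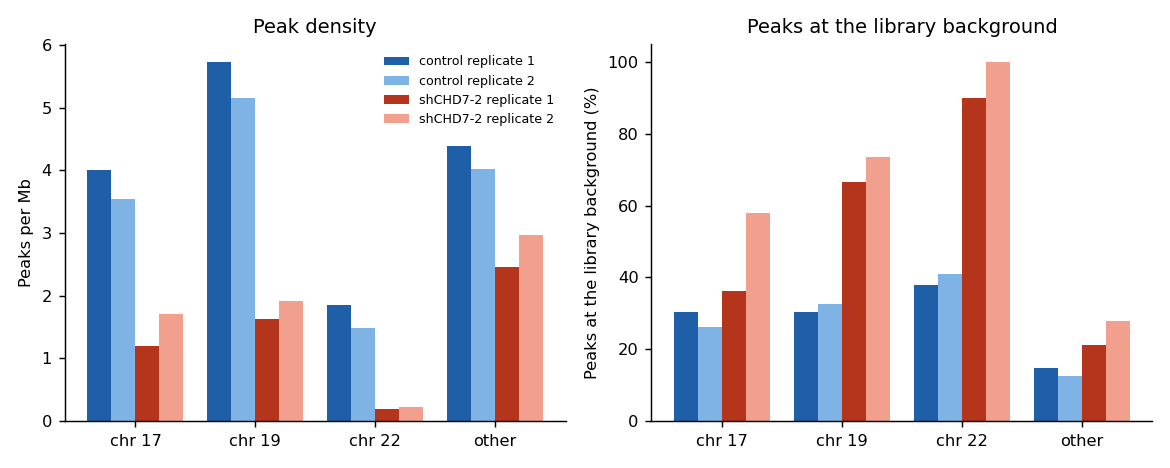
The left panel plots peaks per Mb of hg19 length and the right panel the percentage of peaks whose local background equals the library background, each for chromosomes 17, 19 and 22 and for the other chromosomes together, with 1 bar per library. Chromosome 22 has 0.195 and 0.214 peaks per Mb in shCHD7-2, and 90% and 100% of those peaks sit at the library background.

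Peaks on chromosomes 17, 19 and 22 were weaker in pileup than elsewhere in each of the 4 libraries. The median summit pileup was 11 reads in both controls and 12 in both shCHD7-2 libraries, against 13 and 14 on the remaining chromosomes. Fold enrichment divides the summit pileup by the local background, with 1 added to both, and its median was 5.56 and 5.43 in the controls and 5.24 and 4.84 in shCHD7-2. The group difference of -0.45 (5.49 ± 0.092 against 5.04 ± 0.289, n = 2 each, exact permutation p = 0.333) stood beside one from 5.77 ± 0.044 to 5.01 ± 0.082 on the remaining chromosomes. The difference here was -0.25 without shCHD7-2 replicate 2, -0.65 without shCHD7-2 replicate 1 and -1.35 with lists of equal length. It was -0.14 among peaks that passed a common p after pileups were scaled to the lowest library background. That scaling only chose the peaks, and their fold enrichments stayed the deposited, unscaled ones. The median fold enrichment minus that of the remaining chromosomes was -0.19 and -0.38 in the controls and 0.17 and -0.12 in shCHD7-2, so the 2 groups did not overlap in this measure either (exact permutation p = 0.333).

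Peaks here were also narrower and covered less DNA. Median peak width was 438 and 432 bp in the controls and 398 and 400 bp in shCHD7-2, against 468, 462, 402 and 407 bp elsewhere in the same order of libraries. The covered length was 351 and 311 kb in the controls and 86.1 and 117 kb in shCHD7-2. Width was thus further from that of the other chromosomes in the controls than in shCHD7-2. By single chromosome, median width exceeded that elsewhere on chromosome 17 in shCHD7-2 replicate 1 (405 bp) and on chromosome 19 in shCHD7-2 replicate 2 (414 bp). It was lower in the other cases.

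Peaks here lay in DNA with a lower local background than elsewhere, in the controls and in shCHD7-2 alike. The median local background was 1.06 and 1.02 reads in the controls and 1.40 and 1.62 reads in shCHD7-2, against 1.46, 1.40, 1.86 and 2.02 reads on the remaining chromosomes. As a ratio to those medians it was 0.727 ± 0.002 in the controls and 0.778 ± 0.036 in shCHD7-2, a difference of 0.051 (n = 2 each, exact permutation p = 0.333, no overlap). It was 0.026 without shCHD7-2 replicate 2 and 0.076 without shCHD7-2 replicate 1. Both shCHD7-2 medians equal the library background itself, which is the lowest value in those lists, so in shCHD7-2 the ratio was set by that value and is no measure of surrounding coverage. The ratio was under 1 in all 4 libraries.

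In the shCHD7-2 libraries most of these peaks were at the library background itself. MACS2, named among the tools in the submitters' processing notes, by default takes the larger of a genome-wide and a local estimate, so the library background acts as a floor. 1 peak of these chromosomes in each control list lay below it and 0 did in the shCHD7-2 lists. The share of peaks at that floor was 31.4% and 30.6% in the controls and 53.2% and 66.4% in shCHD7-2, against 14.8%, 12.5%, 21.1% and 27.8% elsewhere. On chromosome 19 it was 30.4% and 32.5% in the controls and 66.7% and 73.5% in shCHD7-2, and on chromosome 17 it was 30.5% and 26.0% against 36.1% and 58.0%. Peaks with a local background of at least 3 times the library background numbered 7 and 11 in the controls (0.922% and 1.64%) and 0 in either shCHD7-2 library. Such peaks made up 13.4% and 14.9% of the control peaks and 2.54% and 2.11% of the shCHD7-2 peaks elsewhere, so they were a smaller share of the shCHD7-2 lists there too. For a peak at the floor the surrounding coverage itself is not known, only that it was no higher.

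The controls shared 454 regions, called control regions here, and 98 of these kept a peak in both shCHD7-2 libraries. This was 21.6% (95% Wilson interval 18.0 to 25.6, over regions and for counting error only), against 39.7% of all 8557 control regions and 40.7% (39.6 to 41.8) of the 8103 on the remaining chromosomes. A further 119 kept a peak in 1 of the 2, and 237 were lost, with a peak in neither, which was 52.2% (47.6 to 56.8) against 34.4% of all control regions. Neighbouring regions share libraries and coverage and are not replicates of the condition, so these intervals do not cover differences between cultures. With all 4 lists cut to the same length the kept share was 35.0% here and 52.0% elsewhere, and it was 37.4% without shCHD7-2 replicate 1 and 13.8% without control replicate 2.

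The lower kept share was seen in each shCHD7-2 library on its own. Replicate 1 had a peak at 31.9% of the 454 regions against 50.4% of control regions elsewhere, and replicate 2 at 37.4% against 56.8%. On chromosome 17 these were 30.2% and 42.7%, on chromosome 19 they were 36.2% and 37.1%, and on chromosome 22 they were 20% and 15.6%. The order of the 2 libraries differed between chromosomes 17 and 22.

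Chromosome 17 kept 45 of 199 control regions in both libraries (22.6%, Wilson interval 17.4 to 28.9), chromosome 19 kept 49 of 210 (23.3%, 18.1 to 29.5) and chromosome 22 kept 4 of 45 (8.89%, 3.51 to 20.7). The shares with no peak in either library were 49.7%, 50% and 73.3%. Ordered from the lowest kept share among 23 chromosomes, chromosome 22 took rank 1, chromosome 21 rank 2 with 22.2%, and chromosomes 17 and 19 ranks 3 and 4. The intervals of all 4 overlapped, that of chromosome 22 included, but overlap of intervals does not decide whether shares differ. The upper end for chromosome 22, 20.7%, lay below the kept shares of chromosomes 17, 19 and 21. No difference between these chromosomes was tested. With lists of equal length the kept shares were 31.8% on chromosome 17, 39.8% on chromosome 19 and 20% on chromosome 22, where 2 of 10 were kept.

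**Figure D2:**
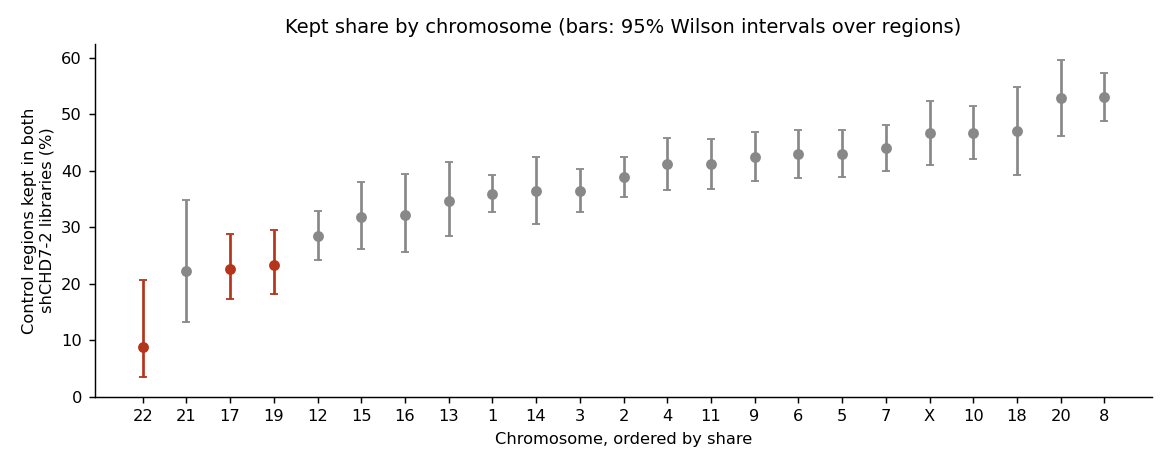
Percentage of regions called in both control libraries that have a peak in both shCHD7-2 libraries, for each of 23 chromosomes ordered by that percentage, with 95% Wilson intervals over regions as bars and chromosomes 17, 19 and 22 in red. Chromosome 22 is lowest at 8.89%, and chromosomes 17 and 19 stand at 22.6% and 23.3% beside chromosome 21 at 22.2%.

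Few regions went the other way. Gained regions, called in both shCHD7-2 libraries and in neither control, numbered 11, which was 9.09% of the 121 regions that both shCHD7-2 libraries shared here, beside 11.0% over all chromosomes. Chromosome 17 held 7 of them, chromosome 19 held 4 and chromosome 22 held 0. The count was 44 without shCHD7-2 replicate 1, 29 without replicate 2, 17 without either control, 18 with lists of equal length, 4 at a -log10 q of at least 5 and 7 with pileups scaled to the lowest library background. On chromosome 22, 17 regions had any shCHD7-2 peak, and each of them also had a control peak. Control replicate 1 had a peak at 10 of the 10 regions of shCHD7-2 replicate 1 there, against 67.0% elsewhere. Control replicate 2 had one at 10 of the 11 of shCHD7-2 replicate 2, against 61.5%. Between the shCHD7-2 libraries, 4 of the 17 were shared, 6 were seen in replicate 1 alone and 7 in replicate 2 alone. The shared 4 were 40% of the regions of replicate 1 and 36.4% of those of replicate 2, against 61.6% and 51.1% elsewhere. So few regions do not bound these shares closely.

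The peaks that remained in shCHD7-2 were mostly peaks of the controls. Of the regions in shCHD7-2 replicate 1, 81.3% had a peak in control replicate 1 against 67.0% elsewhere, and for shCHD7-2 replicate 2 the figures were 74.3% and 63.4%. In the other direction 21.4% and 25.8% of the regions in control replicate 1 had a peak in the shCHD7-2 replicates, against 37.4% and 42.6% elsewhere. The 2 controls shared 60.3% of the regions of control replicate 1 against 65.6% elsewhere, and the 2 shCHD7-2 libraries shared 61.1% of those of shCHD7-2 replicate 1 against 61.6%. Agreement within a group was thus much nearer to that of other chromosomes than agreement between groups. Another 500 of the 1024 regions (48.8%) had a peak in a single library, against 47.7% elsewhere, and 449 of them were in a control, against 5771 of 9273 elsewhere, and 59 had the remaining combinations.

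The control regions of these chromosomes ranked low in the control lists before any comparison. Peaks were ranked in each list by their p value, and a region's rank was its mean percentile over the controls. Its median was 46.4 here, 47.3 on chromosome 17, 48.6 on chromosome 19 and 36.3 on chromosome 22, against 63.8 elsewhere and a range of 52.2 to 69.0 over the single remaining chromosomes. When all control regions were divided into 10 strata by this rank, 74.7% of the regions here lay in the weaker 5 strata, against 48.6% elsewhere, and only 4 of 454 lay in the strongest one, against 852 of 8103.

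Rank and the kept share moved together on all chromosomes. Within strata, the kept share here was 4.23% against 10.3% elsewhere in the weakest stratum, 6.76% against 13.3% in the second, 9.88% against 20.3% in the third and 15.5% against 23.6% in the fourth. It was 27.3% against 27.7% in the fifth, slightly higher than elsewhere in strata 6 to 8, and lower in the strongest 2 strata, which held 23 regions here. It was lower in 7 of 10 strata in all.

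Taken at the kept shares of the remaining chromosomes stratum by stratum, 120.1 of the 454 regions would have been kept in both, and 98 were. The ratio of observed to expected was 0.816 (0.682 to 0.967 from the Wilson interval). It was 0.838 (0.643 to 1.07) on chromosome 17, 0.862 (0.670 to 1.09) on chromosome 19 and 0.417 (0.165 to 0.974) on chromosome 22. Against the raw ratio of 21.6% to 40.7%, the shortfall at equal control rank was smaller.

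**Figure D3:**
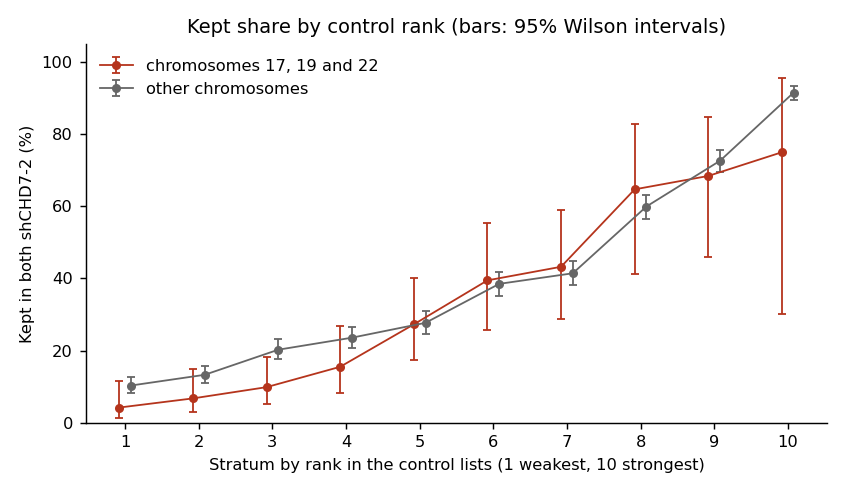
Percentage of control regions kept in both shCHD7-2 libraries, by stratum of rank in the control lists from 1 (weakest) to 10 (strongest), for chromosomes 17, 19 and 22 in red and the other chromosomes in grey, with 95% Wilson intervals over regions. The red points lie below the grey ones in strata 1 to 4, near them in strata 5 to 9 and below in stratum 10, which holds only 4 red regions (75% against 91.5%).

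Local background in the controls was related to the kept share as well, and the classes used for it were chosen after the data were examined. Of the 454 regions, 218 (48.0%) had a mean control background under 1.25 times the library background, against 18.1% of control regions elsewhere. In that class 7.80% were kept in both shCHD7-2 libraries, against 15.2% elsewhere. In the class from 1.25 to 1.75 times, 31.6% were kept against 27.5%, from 1.75 to 2.5 times 34.5% against 44.6%, and above that 52.2% of 23 regions against 65.5%. On chromosome 22, 31 of 45 regions were in the lowest class and 0 of those were kept, while all 4 kept regions were in the class from 1.25 to 1.75 times. With both control rank and control background matched to the remaining chromosomes, the ratio of observed to expected was 0.887 (0.742 to 1.05). It was 0.892 (0.685 to 1.14) on chromosome 17, 0.942 (0.732 to 1.19) on chromosome 19 and 0.497 (0.196 to 1.16) on chromosome 22. This match used 5 classes of rank, fewer than the strata above, and 4 of background. The smallest combination of classes held 6 control regions elsewhere. Each interval included 1, but these intervals cover counting error over regions only and do not decide whether a shortfall remained. As the rank classes also changed, the difference from the ratios at equal rank alone cannot be assigned to background. Whether surrounding coverage played a part in the loss of peaks was not tested.

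Strong control regions were few here. Regions with a mean control percentile of at least 90 numbered 7, of which 5 were kept in both, against 1090 elsewhere with 89.6% kept. At a percentile of at least 75 there were 53, of which 34 (64.2%) were kept, against 72.0% elsewhere. Chromosome 19 kept 19 of its 23 such regions and lost 0, while chromosome 17 kept 13 of 25 and lost 4. Chromosome 22 had 5, of which 2 were kept.

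In the 98 retained regions the summit pileup was lower in shCHD7-2 despite the higher background. The median pileup was 16.5 and 15 reads in the controls and 13 and 14 reads in shCHD7-2, and the median fold enrichment was 6.92, 6.64, 5.79 and 5.34 in the same order. Divided by the library background, the median pileup was 18.0 and 17.8 in the controls and 9.28 and 8.63 in shCHD7-2. The retained regions elsewhere went from 25.1 and 24.9 to 11.4 and 11.1. These regions were selected for a peak in all 4 libraries, so the values describe them and carry no test.

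The strongest retained regions show what a kept site looked like in each library. At chr17:53827995-53828951 in 17q22 the summit pileup was 39 and 33 reads in the controls and 25 and 38 in shCHD7-2, with fold enrichments of 11.1, 11.4, 7.14 and 8.48. The pileups of the 2 groups overlapped there and the fold enrichments did not. At chr17:49337306-49337942 in 17q21.33 the pileup was 35, 32, 24 and 32 reads, and at chr17:58754633-58755390 in 17q23.2 it was 33, 30, 18 and 23 reads.

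The named retained regions of chromosome 19 had pileups in the same range. At chr19:42772508-42773368 in 19q13.2 it was 33 and 21 reads in the controls and 32 and 25 in shCHD7-2, so the groups overlapped. The region chr19:54693494-54695130 in 19q13.42, 1637 bp wide, had 33, 38, 25 and 36 reads with fold enrichments of 6.51, 7.22, 5.99 and 6.88. The region chr19:28284047-28285412 in 19q11 had 28, 28, 20 and 28 reads. Chromosome 22 kept 4 regions, and the 3 strongest were lower. At chr22:35695733-35696598 in 22q12.3 the pileup was 18, 18, 13 and 17 reads. In 22q13.2 it was 15, 16, 16 and 12 reads at chr22:41777335-41777917 and 17, 17, 18 and 10 reads at chr22:41047702-41048327.

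The strongest lost regions of chromosome 17 had control pileups above the median of its retained regions, which was 16 and 15 reads. At chr17:61698944-61699715 in 17q23.3 the controls had 22 and 26 reads with fold enrichments of 8.85 and 10.0, at a mean percentile of 90.4 in the control lists, and neither shCHD7-2 library listed a peak. At chr17:66508370-66508914 in 17q24.2 they had 27 and 19 reads, and at chr17:62502448-62503309 in 17q23.3 they had 20 and 18 reads. An absent peak means that the shCHD7-2 pileup did not pass the threshold there, and its value is not in the lists.

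On chromosome 19 the strongest lost regions were chr19:19496131-19496692 in 19p13.11 with 14 and 15 reads, chr19:57791210-57791948 in 19q13.43 with 16 and 14 reads, and chr19:39390129-39390909 in 19q13.2 with 15 and 13 reads. On chromosome 22 the region chr22:47150029-47150678 in 22q13.31 had 17 and 14 reads, and chr22:41032634-41033413 and chr22:42486559-42487288, both in 22q13.2, each had 11 and 15. The lost region chr22:41032634-41033413 and the retained region chr22:41047702-41048327 lie close together in the same band. The smallest pileup of any listed peak was 6 reads in the controls and 8 in shCHD7-2, so the shCHD7-2 lists needed more reads at a summit.

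The named gained regions were seen in the shCHD7-2 libraries alone. At chr17:69408790-69409346 in 17q24.3 shCHD7-2 replicate 1 had 12 reads and replicate 2 had 25, so the 2 libraries differed there, and at chr17:69185248-69185858 in the same band they had 12 and 13. On chromosome 19, chr19:18335244-18335584 in 19p13.11 had 14 and 11 reads and chr19:56116141-56116916 in 19q13.42 had 11 and 13.

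**Figure D4:**
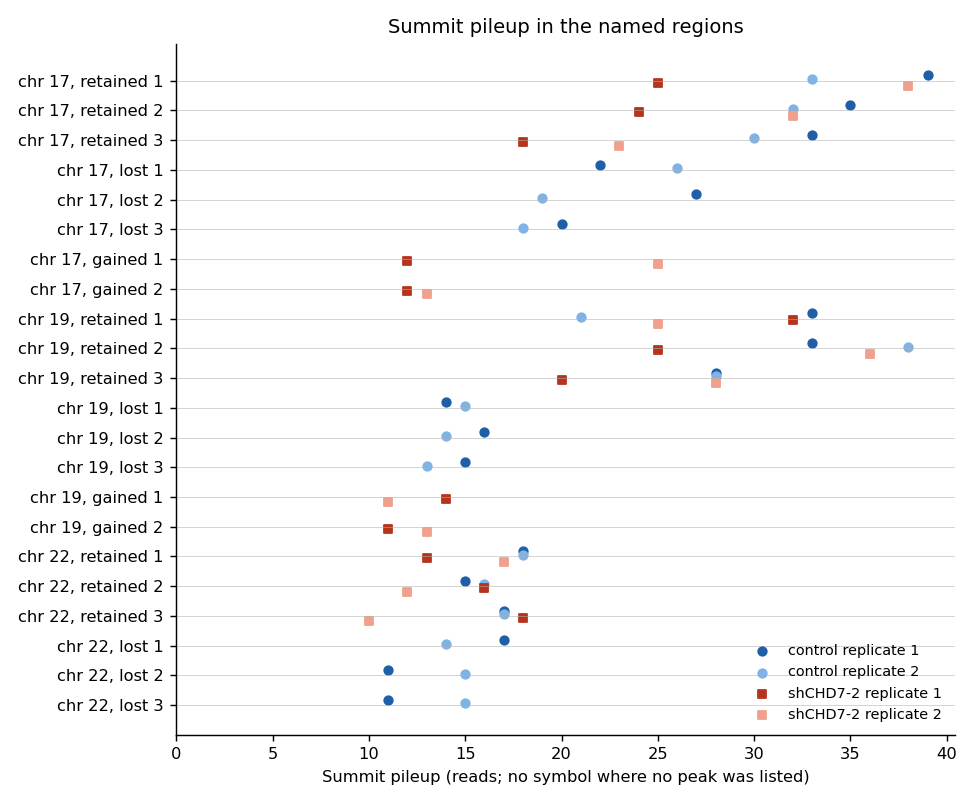
Summit pileup in reads for the 22 named regions of chromosomes 17, 19 and 22, numbered within each class by mean percentile rank, with circles for the control libraries and squares for the shCHD7-2 libraries. Retained regions on chromosomes 17 and 19 lie between 18 and 39 reads, while the lost regions of chromosomes 19 and 22 lie between 11 and 17 reads in the controls.

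Along the chromosomes, lower peak numbers in shCHD7-2 were spread over most bins of 5 Mb. Of 40 bins, 37 held a peak in some library, and in 34 of those both shCHD7-2 libraries had fewer peaks than both controls. The same count was not made for bins on the remaining chromosomes. As the shCHD7-2 lists were shorter over all chromosomes, it is not known to be particular to this set. The other 3 bins of the 40 are the first 3 of chromosome 22, over its short arm and centromere. Another 3 bins, all on chromosome 22, had control peaks and no shCHD7-2 peak. Among the 31 bins with at least 5 control regions, the kept share had a median of 20% (SD between bins 17.9 points, range 0 to 80%), and it lay below the 40.7% of the remaining chromosomes in 28. The 493 bins on the remaining chromosomes had a median of 40% with an SD of 22.7 points. Bins of 5 to 25 regions carry wide counting errors, so single bins are given as counts.

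On chromosome 17 the bin with most control regions was 70 to 75 Mb, 17q24.3 to 17q25.2, which kept 8 of 22. The highest kept share was at 10 to 15 Mb, 17p13.1 to 17p12, with 4 of 7, and the lowest was 0, at 35 to 40 Mb (17q12 to 17q21.2) with 0 of 5 and at 75 to 80 Mb (17q25.2 to 17q25.3) with 0 of 11. The last of these adjoins the bin with most regions. At 50 to 55 Mb, 17q21.33 to 17q22, 4 of 8 regions were kept in both, the other 4 in 1, and 2 regions were gained.

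On chromosome 19 the bins with most control regions were the 2 at the end of the long arm, with 25 each, of which 6 and 5 were kept. The highest kept share was at 30 to 35 Mb, 19q12 to 19q13.11, just beyond the centromere, with 4 of 5, and the lowest was at 45 to 50 Mb, 19q13.31 to 19q13.33, with 2 of 23. In the latter, 13 regions had a peak in 1 shCHD7-2 library and 8 in neither, so most sites there were seen in 1 shCHD7-2 replicate only. On chromosome 22 the bin at 40 to 45 Mb, 22q13.1 to 22q13.31, held 17 of the 45 control regions and kept 2, and the bin at 35 to 40 Mb kept 2 of 9. The bins at 30 to 35 Mb and 45 to 50 Mb kept 0 of 6 and 0 of 5, and all 5 regions of the latter had no peak in either shCHD7-2 library. A count of 0 in so few regions does not bound the share closely.

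**Figure D5:**
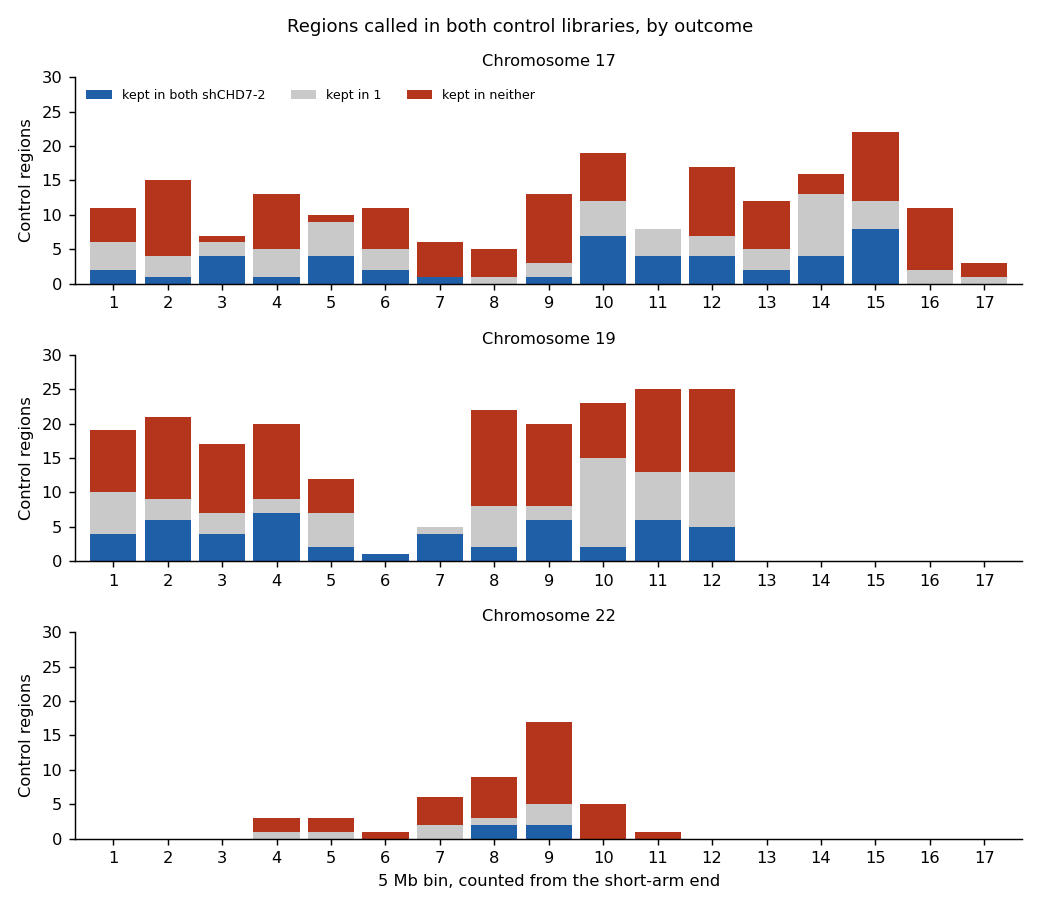
Number of regions called in both control libraries in each 5 Mb bin of chromosomes 17, 19 and 22, counted from the short-arm end and split by whether both, 1 or neither shCHD7-2 library has a peak. Regions kept in neither library occur in most bins with control regions, and the first 3 bins of chromosome 22 are empty.

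Neither arms nor stained bands separated kept from lost regions in 1 direction. The kept share was 12 of 56 on 17p, 33 of 143 on 17q, 23 of 89 on 19p and 26 of 121 on 19q, and all 45 control regions of chromosome 22 lay on 22q. Light Giemsa bands, which are known to be gene-rich, kept 15.6% of 122 regions on chromosome 17 against 33.3% of 75 in dark bands. On chromosome 19 the order was opposite, with 29.1% of 86 in light and 17.4% of 109 in dark bands. On chromosome 22 light bands kept 0 of 23 and dark bands 4 of 22. On the remaining chromosomes light bands kept 37.2% and dark bands 45.0%, and no difference between band classes was tested.

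Control regions were sparse on chromosome 22 and dense on chromosome 19. Chromosome 19 had 3.55 control regions per Mb, rank 3 of 23, chromosome 17 had 2.45, rank 14, and chromosome 22 had 0.877, the lowest, against 2.85 on the remaining chromosomes together. The median gap between neighbouring control regions was 201 kb on chromosome 17, 154 kb on chromosome 19 and 375 kb on chromosome 22, against 139 kb elsewhere. Gaps under 10 kb made up 2.53%, 2.87% and 2.27% of all gaps on these chromosomes against 5.48% elsewhere. These differences in spacing were not tested.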

How the data were processed

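Accessibility was measured by ATAC-seq in 2 control and 2 shCHD7-2 libraries, grouped by their titles. The authors deposited 1 narrowPeak list per library, and the submitters' processing notes name Bowtie2 2.2.5, SAMtools 1.9, MACS2 2.1.2, deepTools 3.3.0 and hg19 without settings. Read shifting for Tn5 and duplicate removal are not given in the sources used here. The deposited score, the fold enrichment (a ratio of pileup to local background), the -log10 p and q values and the summit offset were used as the authors gave them.

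Pileup k and background b were solved from (k + 1) / (b + 1) and the Poisson p, a solution that met the deposited -log10 p to 0.001 for 100% of peaks. Fold enrichment and p were also recomputed from the solved k and b and solved again. That round trip checks the inversion and not the formula itself. Levels across lists were set side by side although each list has its own depth. Members, lists and rules were chosen with earlier results of these data known. Named regions were the 3 retained, 3 lost and 2 gained per chromosome with the highest mean percentile rank. Named bins were those with most regions and with the highest and lowest kept share among bins of at least 5 regions, and other regions and bins named were chosen after their values were seen. Library values were compared by an exact two-sided permutation test over 6 assignments, and region shares have 95% Wilson intervals that cover counting error only. Chromosome lengths and bands came from GenomeInfoDb and circlize. Peaks on scaffolds, genes and sequences were left out.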

Additional observations from a re-analysis of the deposited data

How the results depend on the processing

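The log2 ratios of peak density and share, and the differences in fold enrichment and local background, kept their direction under every alternative run. The kept share was lower, and the lost share higher, than on the remaining chromosomes in 9 of 9 alternatives that could change these shares. The kept share was 14.7% at -log10 q of at least 5, 35.0% with lists of equal length (52.0% elsewhere), 17.3% with pileups scaled to the lowest library background and 17% when summits had to lie within 250 bp. The share without a peak in either library was 61.3%, 32.8% and 58.8% under the first 3 of these, and 4, 18 and 7 regions were gained. Leaving out each library gave 13.8% to 37.4% kept, 62.6% to 68.1% without a peak and 17 to 44 gained regions. These settings change what is counted. Without control replicate 1 or 2 the control regions were the 663 or 753 of the remaining control list. Without a shCHD7-2 library, a peak in the remaining one was enough to count as kept. Without shCHD7-2 replicate 1 the kept share was 37.4% and 44 regions were gained, without shCHD7-2 replicate 2 they were 31.9% and 29, and without control replicate 2 or 1 the kept share was 13.8% or 15.7% with 17 gained in either case. Under equal list lengths the log2 ratio of peak density was -0.74, and the difference in fold enrichment was -1.35, or -1.28 in regions called in all 4 libraries. Among peaks that passed a common p after scaling to the lowest library background, the difference in fold enrichment was -0.14. The fold enrichments themselves were not scaled, so this is no difference at equal depth. The cause of these shifts was not tested. The ratio of observed to expected kept regions was 0.822 with 20 strata, and the median kept share was 22.6% in bins of 10 Mb. Under the other 2 overlap rules, added after the data were examined for these values, the ratio was 0.789 and 0.833 and the median 17.6% and 25%.

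The labels do not say whether same-numbered libraries were paired. Their deviations had a correlation of 0.038 over 1024 regions, which with 2 libraries per group cannot show that they were unpaired. With the replicate block, the log2 ratio of peak density was -1.63 and that of the share was -0.95 (exact sign-flip p = 0.5, the smallest it allows). Depth limits the analysis, because weak peaks near the threshold make up much of the set and read totals are not in the lists.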

Other observations

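Peaks on the scaffolds assigned to these chromosomes without a position were few and were listed in both groups. The chromosome 17 scaffold gl000205 had 2 peaks in each control list, 1 in shCHD7-2 replicate 1 and 3 in shCHD7-2 replicate 2, and its highest summit pileup was 85, 85, 64 and 68 reads in that order of libraries. These pileups exceeded those of the named regions, at a fold enrichment of 3.88, 4.36, 3.90 and 4.00.

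Across all 23 chromosomes the kept share had a Pearson correlation of -0.46 with gene density (Spearman -0.40), which was -0.12 (Spearman -0.18) over the 20 chromosomes without 17, 19 and 22. With the median control percentile it was 0.839 (Spearman 0.680), and 0.604 (Spearman 0.520) without the 3. With the median control background it was 0.760 (Spearman 0.724), and 0.591 (Spearman 0.586) without the 3. The chromosomes share the same 4 libraries, so these values are descriptions.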
